A study of Mus musculus with 12 samples.

Results

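The genes described here are a chosen set of muscle transcription factors, each measured with a probe set of its own. They belong to the myogenic regulatory and MEF2 families, with the homeodomain factor Six4. The set also holds Mymk (listed as Tmem8c), which encodes the fusion protein myomaker. Relatives of Six4 that were measured too, such as Six5, are not in the set and are described with the partner lists. The genes of the set are Myod1, Myf5, Myf6 and Myog, Mef2a, Mef2c and Mef2d, Six4 and Mymk, 9 of the 19938 genes measured. They were chosen by name, and each gene was read from the probe set, among those paired with exactly 1 symbol, that had the highest mean level over the 12 arrays. Mef2d had a second such probe set, whose values are given with the first.

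The study compared quadriceps muscle of C57Bl/6 mice that lack cofilin-2, an actin filament severing protein encoded by Cfl2, with that of wildtype littermates, all at postnatal day 7. There were 6 arrays labelled KO and 6 labelled WT, each carrying RNA of a separate mouse, and the methods describe 6 littermate pairs. The null allele came from a line made earlier, and the sources used here give no sex for the mice. The question was how the transcripts of young muscle depend on cofilin-2. The number of arrays limits the precision, and p-values measure the spread between mice.

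Cfl2 itself ran against the labels. Its log2 level ranged from 12.31 to 12.43 on the arrays labelled KO and from 4.92 to 7.71 on those labelled WT, a log2 difference of 6.32 ± 0.36 (SE, adjusted p = 1.98e-07 by limma). All 12 arrays thus opposed their labels, and the arrays were kept in the groups their titles give. Every difference below is labelled KO minus labelled WT, which is opposite to the direction in which the text of the study describes most of its genes. A gene higher on the arrays labelled KO was thus higher where the Cfl2 level was high. The labels alone therefore do not give its direction in mice lacking cofilin-2. The place of the Cfl2 probe set relative to the deletion was not looked at. The muscle fibre markers were abundant on all 12 arrays, with a mean log2 level between 12.48 and 12.74. The median of each array over all probe sets was far lower and did not overlap between the groups. It lay between 6.35 and 6.41 on the arrays labelled KO and between 6.42 and 6.46 on those labelled WT. Results with each array centred on its median are therefore given beside the main fit for several genes and lists.

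The myogenic regulatory factors are basic helix-loop-helix (bHLH) proteins that bind E-boxes, short palindromic DNA motifs, as dimers with E proteins. MyoD and Myf5 commit progenitors to the muscle lineage, myogenin drives their terminal differentiation, and Myf6 (MRF4) is the member most abundant in mature fibres. MEF2 proteins are MADS-box factors that bind A/T-rich sites in muscle promoters and act with the myogenic factors, held back by class II histone deacetylases and released by calcium-dependent kinases. Six4 is a homeodomain factor that binds MEF3 sites and works with EYA coactivators. Myomaker is the membrane protein that myoblasts need in order to fuse, and its gene is itself switched on by the myogenic factors.

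Factors of this circuit are known to bind promoters of its own genes, so the 3 windows with a full MEF2 or MEF3 match are shown. RefSeq windows of 300 bases on GRCm38.p6, from 250 bases before the annotated start to 50 bases after it, were searched on both strands for an E-box (CANNTG), its form CAGCTG, the MEF2 consensus and a MEF3 site (TCAGGTTTC). Windows were listed for 6 of the 9 genes. The lines below give Myog at chr1:134289754-134290053 on the plus strand, Mef2a at chr7:67372809-67373108 on the minus strand and 1 of the 2 windows of Six4 at chr12:73113196-73113495 on the minus strand, each 5′ to 3′ in the direction of transcription, with motif matches in capitals.
Myog: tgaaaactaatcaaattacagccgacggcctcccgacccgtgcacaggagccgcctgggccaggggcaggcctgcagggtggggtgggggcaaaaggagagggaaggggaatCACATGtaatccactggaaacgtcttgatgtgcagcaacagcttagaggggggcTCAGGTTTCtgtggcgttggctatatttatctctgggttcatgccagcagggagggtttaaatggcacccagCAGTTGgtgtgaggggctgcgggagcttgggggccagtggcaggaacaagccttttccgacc
Mef2a: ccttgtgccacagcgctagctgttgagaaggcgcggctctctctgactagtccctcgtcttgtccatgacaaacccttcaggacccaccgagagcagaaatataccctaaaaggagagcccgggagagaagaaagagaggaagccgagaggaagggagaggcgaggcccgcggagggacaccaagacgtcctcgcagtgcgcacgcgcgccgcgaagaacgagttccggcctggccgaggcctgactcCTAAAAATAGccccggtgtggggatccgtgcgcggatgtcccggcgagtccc
Six4: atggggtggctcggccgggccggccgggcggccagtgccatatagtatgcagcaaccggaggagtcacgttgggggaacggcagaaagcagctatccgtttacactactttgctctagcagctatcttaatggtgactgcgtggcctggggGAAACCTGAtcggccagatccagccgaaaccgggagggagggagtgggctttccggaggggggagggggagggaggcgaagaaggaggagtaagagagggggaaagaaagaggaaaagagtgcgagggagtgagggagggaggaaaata
In the Myog window the capitals mark an E-box at -138 to -133, a MEF3 site at -84 to -76 and a second E-box at -12 to -7, counted from the start. An A/T-rich run at -64 to -55 of the same window, ctatatttat, is 1 letter away from the MEF2 consensus. In the Mef2a window they mark a match to the MEF2 consensus at -2 to 8, and in the Six4 window a MEF3 site on the opposite strand at -99 to -91. Of 32851 windows, 72.3% held an E-box, 16.3% its form CAGCTG, 3.19% the MEF2 consensus, 26.9% the consensus with at most 1 letter changed and 0.429% the MEF3 site. The 3 windows of Mef2c held 3 E-boxes and no other full match. Runs 1 letter away from the MEF2 consensus lay in different windows of Mef2c, each counted from its own start. The window at chr13:83503784-83504083 held gtaattttaa at -146 to -137. The window at chr13:83523406-83523705 held ttgtaattaa at -105 to -96 and ttattactaa at -94 to -85. No such run was found in the remaining window. The windows of Mef2d and Myf5 held no match, which says only that these letters are not in those windows. A match is a run of letters and not a measured site, and no binding was measured on these arrays.

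Of the 9 genes, Mymk was higher on the arrays labelled KO, Mef2a and Mef2c were lower, and the other 6 did not pass the test. The count of 3 of 9 was close to the share over all 19938 genes, of which 31.9% were called, 20.1% higher and 11.8% lower. Higher calls thus made up 62.9% of all calls, and 79.3% when each array was centred on its median. The median size of the log2 difference was 0.167 over the 9 genes and 0.112 over all genes, and the median signed difference was 0.02 over the 9 and -0.015 over all genes. The plot of levels by array shows that only for Mymk did the groups not overlap, as was so for 15.4% of all genes, 10.7% with the arrays labelled KO higher and 4.69% with them lower.

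**Figure D1:**
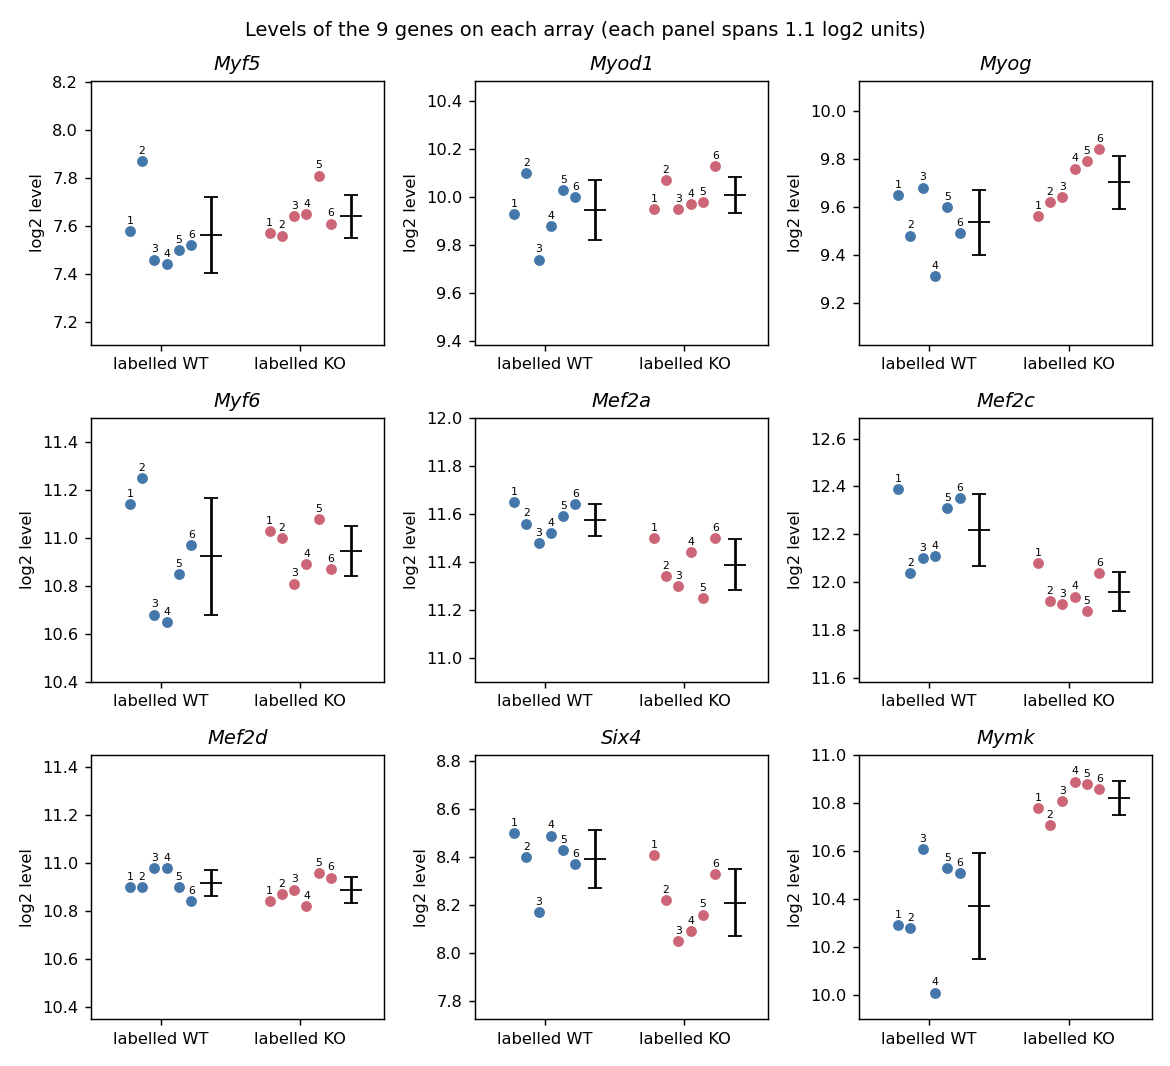
Log2 level (vertical axis) of the 9 genes array by array, labelled WT left of labelled KO, with a numbered point for every array and bars for the group mean and SD. Mymk has all 6 arrays labelled KO, from 10.71 to 10.89, above the highest array labelled WT at 10.61, while in the other genes the groups share part of their range.

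The largest difference among the 9 genes was that of Mymk. Its log2 level had a lowest, median and highest value of 10.71, 10.84 and 10.89 on the arrays labelled KO, and of 10.01, 10.40 and 10.61 on those labelled WT. Every array labelled KO lay above every array labelled WT, and the spread was wider in the group labelled WT, where the array WT4 was lowest. The means were 10.82 ± 0.069 (SD, n = 6) and 10.37 ± 0.22 (SD, n = 6). The log2 difference was 0.45 ± 0.09 (SE), a 1.37-fold higher level with a 95% interval from 1.20 to 1.55 and an adjusted p of 0.00137 by limma. The size of this difference was above that of 92.4% of all genes. In whole muscle, a change in the number of cells of a type and a change in RNA per cell cannot be told apart.

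Mymx, which encodes the small fusion protein myomixer that acts with myomaker, was also higher. It ranged from 7.64 to 7.89 on the arrays labelled KO and from 7.31 to 7.62 on those labelled WT, with no overlap and a log2 difference of 0.22 ± 0.063 (SE, adjusted p = 0.0173 by limma).

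Among the MEF2 genes, Mef2c and Mef2a were lower on the arrays labelled KO. Mef2c, the form that differentiating muscle switches on, had a lowest, median and highest log2 level of 11.88, 11.93 and 12.08 on the arrays labelled KO and of 12.04, 12.21 and 12.39 on those labelled WT. The ranges overlapped narrowly: 4 arrays labelled KO lay below the lowest labelled WT, and 5 labelled WT lay above the highest labelled KO. Its means were 11.96 ± 0.080 (SD, n = 6) and 12.22 ± 0.15 (SD, n = 6), a log2 difference of -0.26 ± 0.07 (SE) or a 1.19-fold lower level, with an adjusted p of 0.00939 by limma.

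Mef2a, a form present in most tissues as well as muscle, had a lowest, median and highest log2 level of 11.25, 11.39 and 11.50 on the arrays labelled KO and of 11.48, 11.58 and 11.65 on those labelled WT. Here too 4 arrays labelled KO lay below all those labelled WT, and 5 labelled WT above all those labelled KO. The log2 difference was -0.19 ± 0.05 (SE), 1.14-fold lower, with a 95% interval from -0.30 to -0.07 and an adjusted p of 0.016 by limma. With each array centred on its median the difference was -0.13 (adjusted p = 0.0938), and without the arrays WT1, WT2 and WT6 it was -0.14 (adjusted p = 0.146).

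Mef2d, likewise widely expressed, did not pass. Its log2 level ran from 10.82 to 10.96 on the arrays labelled KO and from 10.84 to 10.98 on those labelled WT, so that the groups covered almost the same range. The log2 difference was -0.03 ± 0.04 (SE), with a 95% interval from -0.12 to 0.06 and an adjusted p of 0.593 by limma, and its sign turned to 0.02 when arrays were centred on their medians. The second Mef2d probe set gave a log2 difference of -0.05 ± 0.09 (SE). Whether the MEF2 genes differed from one another was tested on the difference between the genes within each array. The group difference of Mef2c minus Mef2d was -0.23 on the log2 scale, with a two-sided exact permutation p of 0.0411 and 0.282 after adjustment over the 9 pairs of genes of a family. The value for Mef2a against Mef2d was -0.15, with an exact permutation p of 0.0628 and the same adjusted p of 0.282.

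None of the 4 myogenic regulatory factors passed the test. Myog had the largest difference of the 4, with a lowest, median and highest log2 level of 9.56, 9.70 and 9.84 on the arrays labelled KO and of 9.31, 9.55 and 9.68 on those labelled WT. Of the arrays labelled KO 3 lay above all those labelled WT, and the others lay within their range. The log2 difference was 0.17 ± 0.07 (SE), with a 95% interval from 0.02 to 0.31, an unadjusted p of 0.0283 and an adjusted p of 0.0765 by limma. It passed when arrays were centred on their medians (0.22, adjusted p = 0.0264), without KO1 (adjusted p = 0.0495) and without WT3 (adjusted p = 0.0457).

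Myod1 had log2 levels with a lowest, median and highest value of 9.95, 9.98 and 10.13 on the arrays labelled KO and of 9.74, 9.97 and 10.10 on those labelled WT. The groups overlapped, with 1 array labelled KO above all those labelled WT and 3 arrays labelled WT below all those labelled KO. The log2 difference of 0.06 ± 0.06 (SE) had a 95% interval from -0.07 to 0.19 and an adjusted p of 0.450 by limma. Myf5 and Myf6 lie next to each other on chromosome 10. Myf5 ran from 7.56 to 7.81 on the arrays labelled KO and from 7.44 to 7.87 on those labelled WT, a log2 difference of 0.08 ± 0.07 (SE, 95% interval from -0.07 to 0.23, adjusted p = 0.418 by limma). In both groups a single array, KO5 and WT2, lay well above the others.

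Myf6 ran from 10.81 to 11.08 on the arrays labelled KO and from 10.65 to 11.25 on those labelled WT, so that the group labelled KO lay wholly inside the range of the other. Its log2 difference of 0.02 ± 0.10 (SE) had a 95% interval from -0.18 to 0.23 and an adjusted p of 0.873 by limma. The sign of that value turned when KO5, WT3 or WT4 was left out. Without WT1, WT2 and WT6 it was 0.22 with an adjusted p of 0.0444. Differences between pairs of the 4 factors had adjusted exact permutation p-values between 0.538 and 0.840, so that none of the 4 was shown to stand apart from the others.

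Six4, the homeodomain factor among the 9, lies on chromosome 12, with 94 protein-coding genes between it and Cfl2. Its lowest, median and highest log2 level was 8.05, 8.19 and 8.41 on the arrays labelled KO and 8.17, 8.42 and 8.50 on those labelled WT. Of the arrays labelled KO 3 lay below all those labelled WT. The log2 difference was -0.18 ± 0.07 (SE), with a 95% interval from -0.33 to -0.03 and an adjusted p of 0.062 by limma. It passed in 6 of 25 alternative analyses, among them quantile normalization (-0.26, adjusted p = 0.00995) and array weights (-0.21, adjusted p = 0.0223), and did not pass in the other 19.

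**Figure D2:**
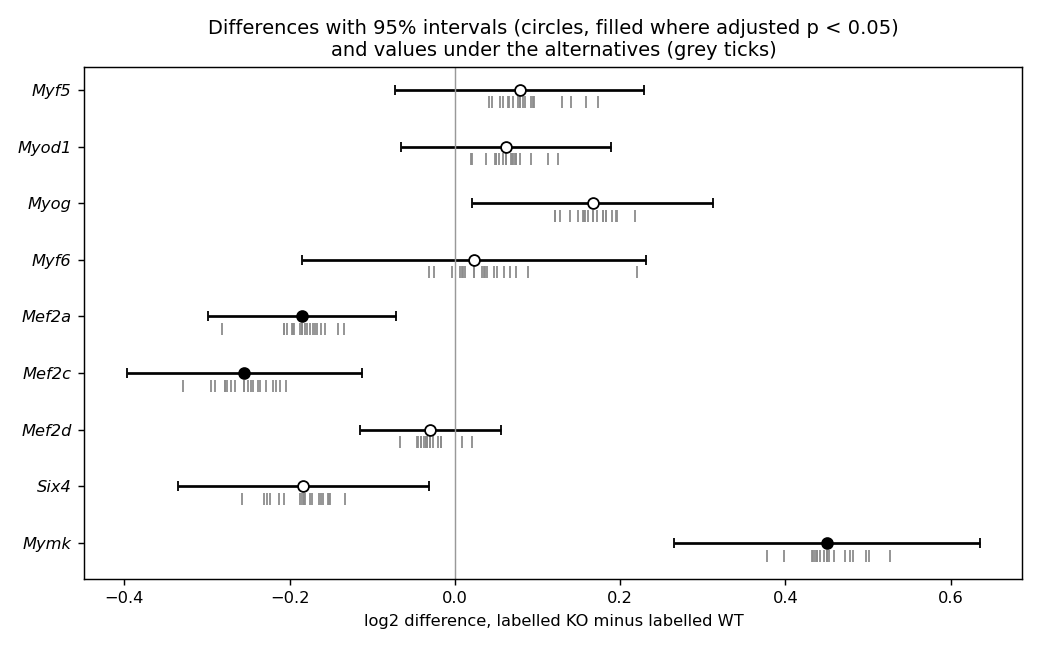
Log2 difference, labelled KO minus labelled WT (horizontal axis), of each of the 9 genes as a circle with its 95% interval from limma, and grey ticks for its value under the alternative settings. Mymk lies at 0.45, Mef2c at -0.26 and Mef2a at -0.19, with filled circles for genes past an adjusted p of 0.05.

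The levels of some of these genes moved together from mouse to mouse within the labelled groups. Correlations were computed over the 12 arrays after subtracting each group's mean, for all 36 pairs of the 9 genes. Mef2a and Mef2c had the highest coefficient, with Pearson's r = 0.761 (permutation p = 0.00077, adjusted p = 0.0277) and Spearman's rho = 0.907 (adjusted permutation p = 0.0202). It was 0.912 among the arrays labelled KO and 0.85 among those labelled WT, and 0.747 without the 2 arrays farthest from the median. This was the 1 pair of 36 whose r passed after adjustment.

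Myog and Mymk had r = 0.712 (permutation p = 0.015, adjusted p = 0.179) and rho = 0.771 (adjusted permutation p = 0.175), with 0.792 among the arrays labelled KO and 0.759 among those labelled WT. Without the 2 farthest arrays r was 0.464, so that the value rested in part on those arrays, of which WT4 had the lowest level of both genes. The neighbours Myf5 and Myf6 had r = 0.742 (permutation p = 0.00493, adjusted p = 0.0887) and rho = 0.543 (adjusted permutation p = 0.529). For this pair r was 0.857 among the arrays labelled WT and 0.300 among those labelled KO. It was 0.516 without the 2 arrays farthest from the median. The plot of paired levels shows the Mef2a and Mef2c pair and the Myog and Mymk pair. Over all 36 pairs r ranged from -0.577 to 0.761, with 20 above 0.

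**Figure D3:**
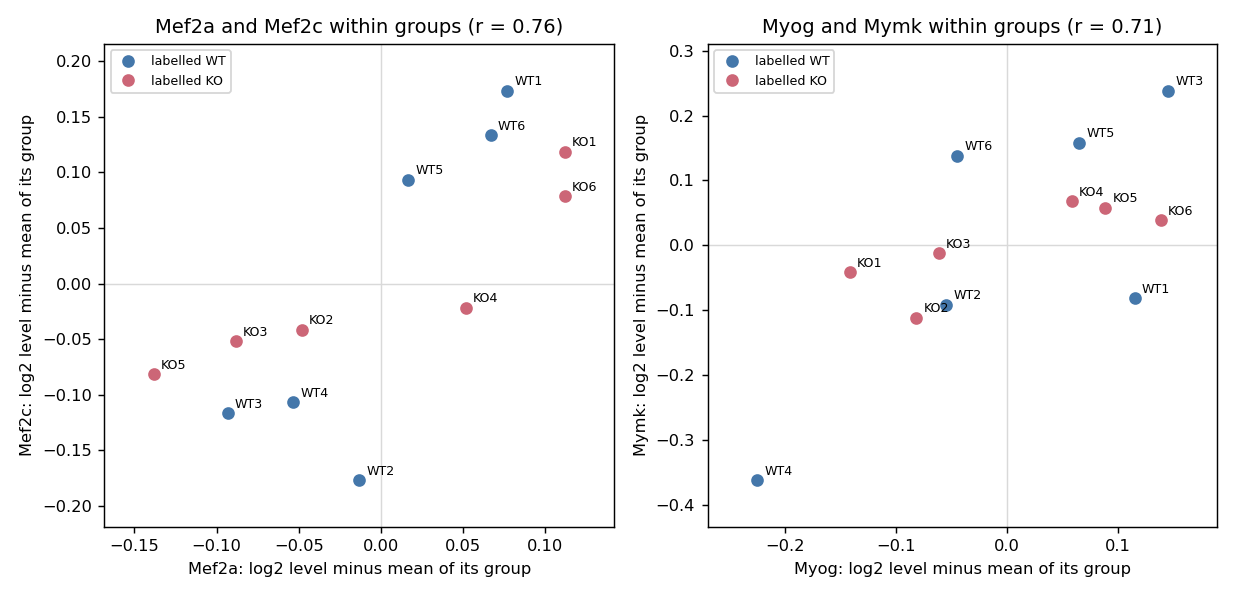
Levels of 2 pairs of genes on single arrays, each as the log2 deviation from the mean of its labelled group on both axes, in blue for arrays labelled WT and red for those labelled KO. Mef2a and Mef2c (left) rise together in both groups (r = 0.761), while for Myog and Mymk (right, r = 0.712) WT4 lies far from the others.

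Mef2c and Mef2a also followed the mean level of 14 skeletal muscle fibre markers within the groups. For Mef2c r was 0.890 (permutation p = 0.00117, adjusted p = 0.0105 over the 9 genes) and rho was 0.829 (adjusted permutation p = 0.0222), and r was 0.844 without the 2 farthest arrays. For Mef2a r was 0.695 (permutation p = 0.0111, adjusted p = 0.050), rho was 0.806 (adjusted permutation p = 0.0222), and r was 0.542 without the 2 farthest arrays. Mymk had r = -0.061 with the same markers. Between the groups the mean marker level overlapped, with 12.48 to 12.72 on the arrays labelled KO and 12.48 to 12.74 on those labelled WT. The mean hides unequal changes, since Myh4 was higher by 1.70 while 6 of the 14 markers were lower. The median log2 difference of the 14 was -0.13, and 2 of them had a positive difference. With the mean marker level as a covariate, which does not stand for each marker, the log2 difference was -0.22 for Mef2c, -0.16 for Mef2a and 0.45 for Mymk. All 3 passed.

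Few partners of the myogenic factors passed the test. Of 19 measured bHLH partners and inhibitors, 4 were higher, or 21.1% beside 20.1% of all genes, and 0 were lower beside 11.8% of all genes, with a median log2 difference of 0.12 against -0.015 over all genes. Bhlhe40, a bHLH repressor of the circadian system, was highest in difference, at 0.91 ± 0.086 (SE, adjusted p = 8.52e-06 by limma), with 9.05 to 9.33 on the arrays labelled KO and 8.01 to 8.51 on those labelled WT. Mdfic, a relative of the MyoD inhibitor I-mfa, was higher by 0.39, and Bhlhe41, a paralog of Bhlhe40, by 0.33. Twist1, a mesenchymal bHLH factor that opposes MyoD, was higher by 0.23 (adjusted p = 0.0482). Twist1 did not pass in 17 of the 25 alternative analyses, and Bhlhe41 did not pass with the adipocyte marker level as a covariate or without WT1, WT2 and WT6.

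The E proteins that pair with the myogenic factors did not pass. Tcf3 had a log2 difference of 0.27 (adjusted p = 0.0542 by limma), Tcf12 of 0.10 (adjusted p = 0.174) and Tcf4 of 0.08 (adjusted p = 0.273). The Id proteins, which sequester E proteins, had differences of -0.03 for Id1, 0.12 for Id2, 0.01 for Id3 and 0.10 for Id4, and none passed. Centring each array on its median gave 7 higher of the 19, and the adipocyte level as a covariate gave 2.

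MEF2 partners and inhibitors moved both ways. Of 22 measured, 6 were higher and 6 lower, 27.3% each way beside 20.1% and 11.8% of all genes, with a median log2 difference of -0.06. Camk2a, a calcium-dependent kinase of the family that releases MEF2 from deacetylases, was higher by 0.56 ± 0.053 (SE, adjusted p = 8.64e-06 by limma). Of the other kinase genes in the list, Mapk7 was higher by 0.25 (adjusted p = 0.000521) and Prkd1 lower by 0.28 (adjusted p = 0.0284). Camk1 (0.15, adjusted p = 0.0593), Camk4 (0.09, adjusted p = 0.305) and Mapk14 (-0.11, adjusted p = 0.234) did not pass, so the kinase genes did not share a direction. Hdac9, a class II deacetylase that MEF2 recruits, was higher by 0.54 ± 0.13 (SE, adjusted p = 0.00498). Another deacetylase of that class, Hdac4, was lower by 0.32 (adjusted p = 0.0119), Hdac7 was higher by 0.16, and Hdac5 had a difference of -0.14 (adjusted p = 0.0853), so that the class II deacetylases did not share a direction. Vgll2, a muscle cofactor of TEAD and MEF2 factors, fell by 0.40 on the log2 scale, from 10.19 to 10.46 on the arrays labelled WT to 9.87 to 10.02 on those labelled KO (adjusted p = 4.95e-05). The acetyltransferase genes Ep300 and Crebbp were lower as well, at -0.33 (adjusted p = 0.0167) and -0.30. Without WT1, WT2 and WT6 the list had 3 higher and 3 lower, and Ep300 did not pass.

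Among 18 measured genes of the Six4, EYA and PAX families and their partners, 5 were higher and 1 lower, with a median log2 difference of 0.07. Their share called, 33.3%, was close to the 31.9% of all genes. Eya1, a coactivator of Six4-type factors with phosphatase activity, was higher by 0.65 ± 0.11 (SE, adjusted p = 0.000635 by limma), with 8.71 to 9.05 on the arrays labelled KO and 7.79 to 8.54 on those labelled WT. Eya4, of the same family, was lower by 0.30 (adjusted p = 0.00266), and Eya2 had a difference of -0.20 (adjusted p = 0.177), so that the EYA genes differed in sign. Dach1, a corepressor of such factors, was higher by 0.46, and Meox2, a homeobox factor of limb muscle, by 0.39. Pax7, the factor of satellite cells, was higher by 0.20 (adjusted p = 0.0188), while Pax3 had a difference of -0.04 (adjusted p = 0.77). Six5 was higher by 0.32 (adjusted p = 0.00302) but did not pass with the adipocyte level as a covariate.

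**Figure D4:**
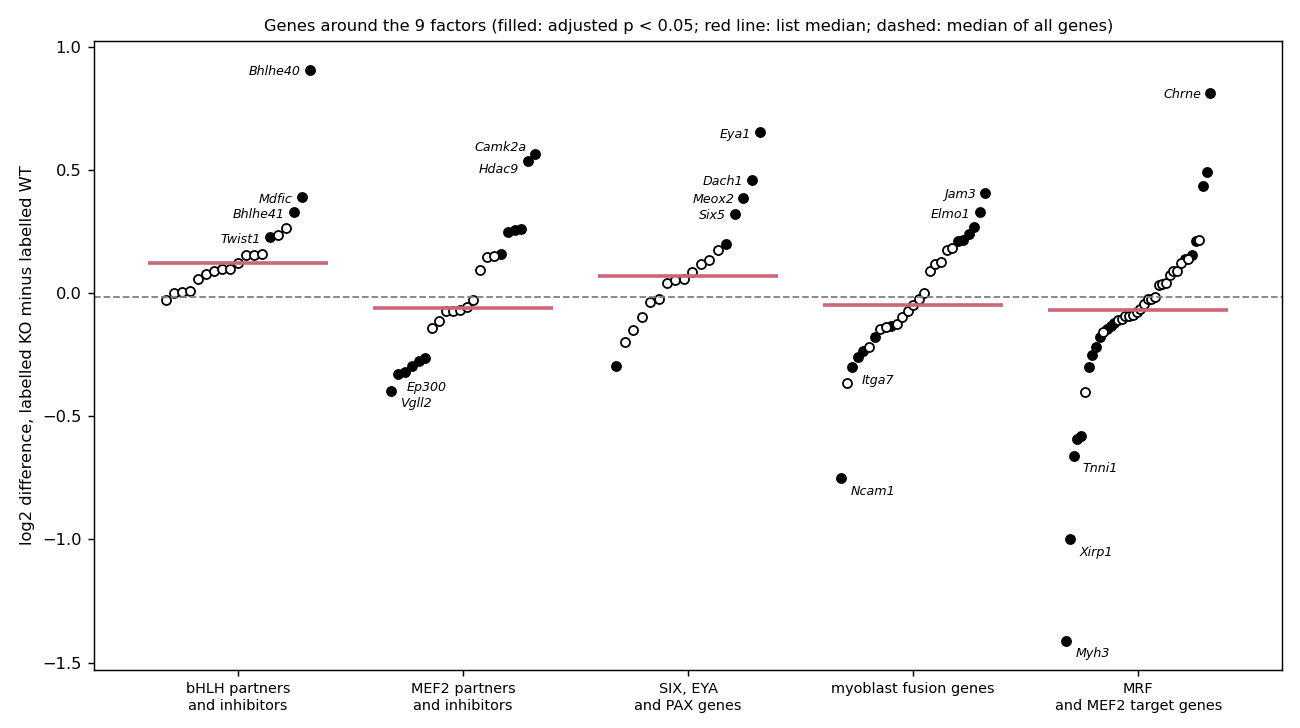
Log2 difference, labelled KO minus labelled WT (vertical axis), of the measured genes of 5 lists (partners of the bHLH, MEF2 and Six4 factors, fusion genes and target genes), with filled points for genes past an adjusted p of 0.05, a red line for each list's median and a dashed line for the median of all genes. The bHLH partners hold 4 genes past it above 0 and 0 below, the fusion genes hold 6 of each, and Myh3 is the lowest point, at -1.41.

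The other genes of myoblast fusion, 27 measured without Mymk, had 6 higher and 6 lower (22.2% each way, beside 20.1% and 11.8% of all genes), and a median log2 difference of -0.05 that came to 0.0008 under median centring. Ncam1, a neural cell adhesion molecule of young and denervated fibres, was lower by 0.75 ± 0.050 (SE, adjusted p = 4.74e-07 by limma), with 10.68 to 10.89 on the arrays labelled KO and 11.40 to 11.63 on those labelled WT. Jam3, a junctional adhesion molecule, was higher by 0.41 (adjusted p = 8.25e-05). The laminin receptor subunit Itga7 and the caveolin gene Cav3 were lower, by 0.30 and 0.18. Elmo1, which activates Rac during fusion, was higher by 0.33 (adjusted p = 0.0266), a call that 7 alternative analyses did not give. The myoblast cadherin Cdh15 had a difference of -0.02 (adjusted p = 0.839). With the adipocyte level as a covariate 2 of the list were higher and 4 lower.

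Of 40 measured genes that myogenic or MEF2 factors are known to activate, 6 were higher and 12 lower, with a median log2 difference of -0.07. These were 15.0% and 30.0% of the list, beside 20.1% and 11.8% of all genes. With each array centred on its median, 7 were higher and 8 lower, with a median log2 difference of -0.018. The lists share genes, among them Itga7 and Cav3 with the fusion list and Des with the fibre markers, so their counts are not separate. Myh3, the embryonic myosin heavy chain, was lower by 1.41 ± 0.14 (SE, adjusted p = 1.18e-05 by limma), with 10.75 to 11.76 on the arrays labelled KO and 12.33 to 12.74 on those labelled WT. Xirp1, an actin-binding protein of myotendinous and intercalated junctions and a MEF2 target, was lower by 1.0 ± 0.12 (SE, adjusted p = 3.55e-05). The slow troponin genes Tnni1 and Tnnc1 were lower by 0.66 and 0.59.

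Of the targets at the neuromuscular junction, Chrne, the adult subunit of the acetylcholine receptor, was higher by 0.81 ± 0.10 (SE, adjusted p = 5.76e-05 by limma), with 8.45 to 8.76 on the arrays labelled KO and 7.44 to 8.02 on those labelled WT. The fetal subunit Chrng had a difference of 0.22 (adjusted p = 0.0625) and Chrna1 of 0.09 (adjusted p = 0.173). Muscle creatine kinase, Ckm, a classical target of MyoD and MEF2, had a difference of -0.02 (adjusted p = 0.733). With the adipocyte level as a covariate 4 of the 40 were higher and 7 lower.

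Markers of other cell types differed between the labelled groups and stand beside all of the counts above. Over all genes 20.1% were higher and 11.8% lower. Of 11 dividing cell markers 10 were higher and 0 lower, and their mean log2 level was 8.85 to 9.09 on the arrays labelled KO and 7.57 to 8.74 on those labelled WT. Of 12 fibroblast markers 9 were higher and 1 lower (10.34 to 10.54 against 9.95 to 10.26), of 10 endothelial markers 6 were higher (10.07 to 10.13 against 9.64 to 9.997), and of 10 macrophage markers 7 were higher (8.63 to 8.80 against 8.11 to 8.59). These 4 lists did not overlap between the groups in mean level. Of 14 fibre markers 1 was higher and 6 lower, and under median centring 1 was higher and 2 lower.

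Other lists overlapped between the groups in mean level. Of 13 satellite cell and myoblast markers 3 were higher and 4 lower, and their mean log2 level was 8.91 to 8.99 on the arrays labelled KO and 8.85 to 8.98 on those labelled WT. Of 13 adipocyte markers 6 were higher and 1 lower, and their mean level was 8.59 on KO5, at least 9.79 on the other arrays labelled KO and from 8.65 to 9.36 on those labelled WT. Of 10 neutrophil markers 1 was lower, with a mean level of 8.91 on WT4 alone and at most 5.87 on the arrays labelled KO. Of 7 Schwann cell markers 3 were higher, and of 8 smooth muscle and pericyte markers 1 was higher and 2 lower. The shares called, 42.9% and 37.5%, were near the 31.9% of all genes. The part of these cell types in the differences of the 9 genes was not tested, beyond the covariates given.

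**Figure D5:**
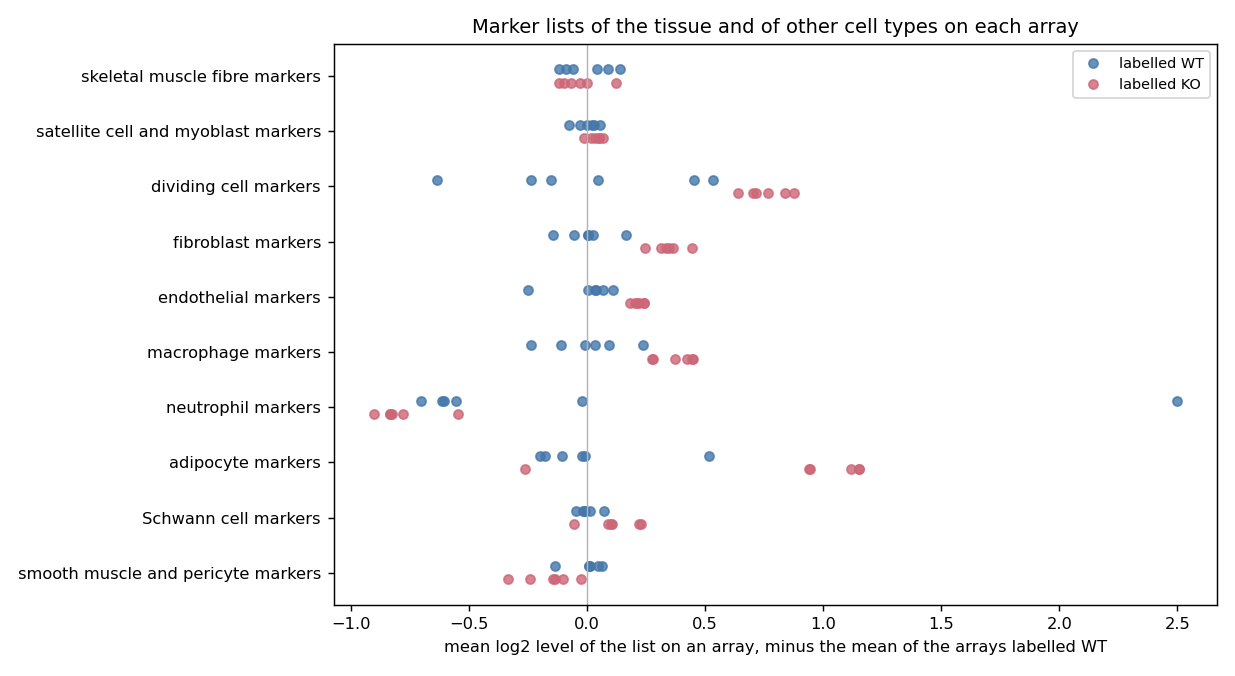
Mean log2 level of each cell type's marker list on single arrays, minus the mean of the arrays labelled WT (horizontal axis), with a blue point for each array labelled WT and a red one for each labelled KO. The muscle fibre and satellite cell lists overlap between the groups, while every array labelled KO lies above every array labelled WT in the dividing cell list, and WT4 lies apart in the neutrophil list.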

How the data were processed

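Total RNA of quadriceps from 6 mice labelled KO and 6 labelled WT was hybridized to Affymetrix Mouse Gene ST arrays. The methods state that the authors extracted images with the operating software of the scanner and made gene level values with Affymetrix Power Tools. For the summarisation algorithm, its version and the genome build, the sources used here give nothing. As deposited, the values appeared to be log2 levels that the authors had normalized across arrays, a scale read from the values because the table names none. No detection calls were used, and a level is not compared between different probe sets. Such summarised values compress the differences of dim probe sets.

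Of 35556 rows, 21789 were paired with 1 gene symbol, 1621 with several and 12146 with none listed. Symbols were brought up to date through a RefSeq gene table of GRCm38.p6, which matched 21698 of the probe sets by gene identifier. Each of 19938 genes was read from its brightest probe set on average, and 999 genes had more than 1 to choose from.

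Differences were fitted on all 21789 probe sets with limma 3.58.1 (lmFit, eBayes) under R 4.3.3, labelled KO against labelled WT without covariates, and adjusted by Benjamini-Hochberg at a threshold of 0.05. Differences between genes of a family were tested by exact permutation of the 924 assignments of arrays to groups, whose smallest p is 0.00216. Correlations used 100000 permutations. In simulated data of the same size the fit recovered 25 of 50 planted log2 differences of 0.25, 48 of 50 of 0.5, and 50 of 50 of 1 and of 2, with 9 false calls. Only 50 probe sets per size, of 21789, held a planted difference, whereas 31.9% of genes passed in these data. The adjusted threshold was therefore stricter in the simulation.

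Named are the 9 genes, Cfl2, up to 4 members of each partner, fusion or target list with the largest change among those past the threshold, and for each of the 9 the 2 genes with the most similar pattern. Members of the lists that are named outside this rule, among them Mymx, the E protein and Id genes, the class II deacetylases, the kinase genes of the MEF2 list, Crebbp, Pax7, Pax3, Eya2, Eya4, Cav3, Cdh15, Chrng, Chrna1, Ckm, Tnnc1, Des and Myh4, were chosen after their values were seen. The 9 genes and all lists were chosen with earlier results of these data known, and the lists hold genes that the study names, so they are no independent evidence of a direction. Groups came from the sample titles.

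Alternative settings were quantile normalization, a replicate block, median centring, dropping probe sets with a mean level under 6 or under 7, all rows of the table, variance settings, array weights, the mean of a gene's probe sets, the adipocyte level as a covariate, each array left out in turn and the methods' t-test. Leaving out WT1, WT2 and WT6, whose fasting and glucocorticoid genes stood apart in earlier results, and the fibre level as a covariate were added after seeing the data.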

Additional observations from a re-analysis of the deposited data

Results flagged for a closer look

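Of the 18 groups of 6 arrays examined for the 9 genes, 2 held an array far from the others, where chance gives about 5 in 100 groups, and both were groups of Myf5. On the array labelled KO5 the log2 level of Myf5 was 7.81, and its gap to the next array took 0.64 of the range of the group. On the array labelled WT2 it was 7.87, with a gap of 0.674 of the range. Without WT2 the log2 difference of Myf5 was 0.14 with an adjusted p of 0.0499 by limma, and with all arrays it was 0.08 with an adjusted p of 0.418. On WT2 Myf6, its neighbour on the chromosome, also had its highest level, at 11.25.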

How the results depend on the processing

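Over 25 alternatives each, Mymk passed in 25 (log2 difference 0.38 to 0.53, adjusted p 0.000605 to 0.0163), Mef2c in 25 (-0.33 to -0.20, adjusted p 0.00132 to 0.0357) and Mef2a in 23. Six4 passed in 6, Myog in 3, Myf5 in 1, Myf6 in 1, and Myod1 and Mef2d in 0. Of the 9 genes 3 passed, and 3 to 5 did when each array was left out in turn, with 1 to 2 higher and 2 to 3 lower. The count was 5 without KO1 or without WT3, where Myog and Six4 passed, and 2 were higher without WT2. Median centring gave 2 higher and 1 lower, as did leaving out WT1, WT2 and WT6, and the methods' t-test at an unadjusted p under 0.05 gave 5. The log2 difference of Myf6 turned to -0.0033 without KO5, -0.025 without WT3 and -0.031 without WT4 (up to 0.089 without WT2), and that of Mef2d to 0.0084 with the adipocyte covariate and 0.021 with median centring. Myod1 minus Myf5 turned to 0.023 without KO5, 0.012 without WT5 and 0.0023 without WT6 (down to -0.048), and Myod1 minus Myf6 to -0.0013 without KO6 and -0.0083 without WT1 (up to 0.080). None of the 9 pairs within a family passed the exact permutation test after adjustment with all arrays or with any 1 left out, and 1 had an unadjusted p under 0.05 with all arrays.

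Over all genes 6359 passed, 4000 higher and 2359 lower, and 5424 to 6583 with 1 array left out (1858 to 2591 lower). The adipocyte covariate gave 3156, of which 2156 were higher and 1000 lower. Lower calls numbered 1339 under median centring and 1520 without WT1, WT2 and WT6. Higher calls made up 62.9% of all calls, 62.1% under quantile normalization and 79.3% under median centring. The cause of these changes was not tested.

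The methods describe 6 littermate pairs, each of a cofilin-2 deficient and a wildtype mouse. Replicate numbers are shared by the groups, but the labels tie no number to a litter. Correlations of same-numbered arrays ran from -0.223 to 0.168, with the own number as best match in 1 of 6. Which arrays form a pair was thus not shown, and the main fit is unpaired. With a replicate block 5558 genes and 4 of the 9 passed, Six4 among them (-0.18, adjusted p = 0.0385).

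The arrays give no depth and no background reading, so no floor of detection is known. Planted log2 differences of 0.25 were recovered in only part of the simulated cases, and the differences of Myog, Mef2a and Six4 are under that size. Far fewer probe sets differed in the simulation than in these data, so its recovered share does not measure the power of this fit.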

Other observations

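For each of the 9 genes the genes with the most similar pattern were found by Pearson's r within the labelled groups, over 12 arrays and all other 19937 genes, as a description with no test, since the points share array, scaling and RNA sample. The 2 most similar genes had r between 0.877 and 0.971. These coefficients were picked as the highest of 19937 over 12 arrays, so their size alone is no evidence of a link. Some of the genes were dim, with a mean log2 level on the arrays labelled KO of 4.07 for Oosp3, 4.71 for Tal2 and 5.27 for Fbxl21. Others were bright, such as Eef2 at 12.69. Mymk was nearest to Oosp3 (0.949) and Tceal8 (0.941), Myog to 1110006O24Rik (0.917) and Fhit (0.877), and Mef2c to Tbc1d31 (0.937) and Pld2 (0.934). Mef2a was nearest to Matr3 (0.918) and Mir27a (0.907), Mef2d to Fbxl21 (0.901) and Traf3ip3 (0.887), and Six4 to Pwp2 (0.938) and Eef2 (0.922). Myod1 was nearest to Tal2 (0.947) and Zkscan7 (0.933), Myf5 to Car14 (0.932) and Sgca (0.927), and Myf6 to Ypel3 (0.971) and Mapk1ip1 (0.954). None of the 9 genes was among the 2 nearest genes of another of the 9.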
